A study of Mus musculus with 21 samples.

Results

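The genes described are 10 of the signalling by calcium and its sensor calmodulin in neurons. They are 7 calcium/calmodulin-dependent kinase genes (Camk2a, Camk2b, Camk2d, Camk2g, Camk4, Camk1d and Camk1g), 2 genes for the catalytic subunit of the phosphatase calcineurin (Ppp3ca and Ppp3cb), and Rcan1, which encodes a regulator of calcineurin. They were chosen by name, with earlier results of these data known, from the 24984 genes of a whole-gene count table, and all 10 passed the filter on low counts that left 16959 genes to test. The assay was BrU-seq, which measures nascent RNA: new transcripts take up bromouridine and are then captured and sequenced, in cortical cultures of CD1 mice of mixed sex at day 17 in vitro. Every culture was first held for 30 min in DMSO (solvent alone) or 25 µM MM401, a peptidomimetic that blocks the binding of the histone methyltransferase MLL1 to WDR5. Each then received 40 µM bicuculline, a blocker of GABA-A receptors that raises network activity, or water, and was labelled with 2 mM bromouridine over the last 30 min. The 7 groups were DMSO with water for 4 h, DMSO with bicuculline for 1 h, DMSO with bicuculline for 4 h, and MM401 with water for 1 h, water for 4 h, bicuculline for 1 h and bicuculline for 4 h. Each had 3 biological replicates, but 1 library of MM401 with water for 4 h held 316741 counts, 0.503% of the median of the others, and was left out, so that this group has n = 2. DMSO with water for 1 h was not analysed here, so both bicuculline times in DMSO are compared with water for 4 h and share those 3 libraries, and at 1 h the drug and the time in culture cannot be told apart.

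CaMKII is a holoenzyme of many subunits that stays active after a calcium transient by phosphorylating itself, and it is central to synaptic plasticity. Its alpha and beta subunits are the main forms in excitatory forebrain neurons, while delta and gamma are made in many tissues. CaMKIV acts mostly in the nucleus on factors such as CREB, and the CaMKI kinases act in the cytoplasm, with both switched on by upstream CaM kinase kinases. Calcineurin is the calcium-activated phosphatase that sends NFAT factors to the nucleus and opposes the kinases at the synapse, and Rcan1 binds and restrains it. Rcan1 has an upstream start and an internal start, and the internal one is a known target of calcineurin and NFAT.

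The promoters of 6 of the 10 genes were matched by symbol in RefSeq (build GRCm38.p6), giving 8 promoters of 300 bases, 250 before and 50 after the start. Those of Rcan1 are shown because the whole-gene count adds up transcripts from both of its starts. They lie on the minus strand, the upstream one at chr16:92466120-92466419 and the internal one at chr16:92400029-92400328, and only the last 8.13 kb of the 74.2 kb gene (10.95% of the span) lie downstream of the internal start. Capitals mark matches on either strand to the cAMP response element TGACGTCA, the AP-1 site TGANTCA and the NFAT core GGAAA.
Rcan1 upstream start: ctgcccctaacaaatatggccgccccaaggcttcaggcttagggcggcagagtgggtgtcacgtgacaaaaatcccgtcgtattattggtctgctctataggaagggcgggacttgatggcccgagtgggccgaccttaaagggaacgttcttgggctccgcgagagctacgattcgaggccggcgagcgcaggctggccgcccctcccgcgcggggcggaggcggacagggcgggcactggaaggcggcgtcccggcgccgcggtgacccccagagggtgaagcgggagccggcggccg
Rcan1 internal start: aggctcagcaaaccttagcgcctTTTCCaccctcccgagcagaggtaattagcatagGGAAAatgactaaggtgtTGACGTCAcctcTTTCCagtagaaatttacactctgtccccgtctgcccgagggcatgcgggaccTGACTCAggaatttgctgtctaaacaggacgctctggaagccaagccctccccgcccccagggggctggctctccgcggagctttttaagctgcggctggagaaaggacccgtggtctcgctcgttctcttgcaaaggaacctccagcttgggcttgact
The upstream promoter held none of these motifs. The internal promoter held a cAMP response element at -175 from the start, an AP-1 site at -110 and 3 NFAT cores at -227, -193 and -163, none of which overlapped another. Over all 32841 promoters of the table, 1.79% held the cAMP response element, 7.81% the AP-1 site and 61.35% the NFAT core. These matches describe the letters only.

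The promoters of Camk2b (minus strand, chr11:6065699-6065998), Camk2d (plus strand, chr3:126596701-126597000) and Camk1g (minus strand, chr1:193370233-193370532) are shown because these genes had responses of opposite sign or, for Camk1g, the largest rise among the 10 at 1 h in DMSO.
Camk2b: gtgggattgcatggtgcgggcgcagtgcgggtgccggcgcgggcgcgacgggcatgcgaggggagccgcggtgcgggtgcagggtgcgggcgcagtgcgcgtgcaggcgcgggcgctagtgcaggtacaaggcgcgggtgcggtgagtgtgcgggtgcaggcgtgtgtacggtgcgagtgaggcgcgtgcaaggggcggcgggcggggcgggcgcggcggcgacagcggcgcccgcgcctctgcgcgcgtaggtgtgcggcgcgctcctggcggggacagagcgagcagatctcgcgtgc
Camk2d: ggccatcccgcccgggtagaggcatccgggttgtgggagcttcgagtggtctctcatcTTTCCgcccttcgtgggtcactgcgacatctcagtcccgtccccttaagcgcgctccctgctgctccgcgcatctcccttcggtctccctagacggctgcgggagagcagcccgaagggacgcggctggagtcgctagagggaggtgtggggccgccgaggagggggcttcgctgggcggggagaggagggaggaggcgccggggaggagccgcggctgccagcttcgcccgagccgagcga
Camk1g: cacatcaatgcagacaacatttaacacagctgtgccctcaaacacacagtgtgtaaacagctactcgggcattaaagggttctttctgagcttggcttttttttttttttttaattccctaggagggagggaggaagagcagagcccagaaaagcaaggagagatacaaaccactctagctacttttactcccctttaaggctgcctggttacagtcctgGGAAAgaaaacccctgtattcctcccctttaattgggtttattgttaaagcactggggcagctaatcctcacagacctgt
Camk2b, which fell with bicuculline, had a promoter of 77.3% G and C with 51 CG pairs and none of the 3 motifs. Camk2d, which rose, had 70.3% G and C with 31 CG pairs and 1 NFAT core at -192. Camk1g had 44.7% G and C with 1 CG pair and 1 NFAT core at -30. The median over all promoters was 52.67%.

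The 20 libraries used held 49886348 to 87939384 counts in genes (median 62996146), and the 10 genes took 0.273% to 0.329% of each, with 1965 to 94446 counts per gene and library. Defining markers of neurons and astrocytes were present, as were Mbp and Pdgfra of the oligodendrocyte lineage and, at lower levels, 4 of 5 microglial markers (Cx3cr1 at a median of 13.6 CPM). Dlx1 of the GABAergic list had no count in any of the 20, and Mog (mature oligodendrocytes), the microglial marker Tmem119 and Cldn5 (endothelium) were at or near 0. The summed level of 5 glutamatergic markers ran from 480 to 612 CPM in DMSO with water and from 904 to 1001 CPM after 4 h of bicuculline. That of 5 GABAergic markers ran from 325 to 343 and from 639 to 681 CPM, and that of 6 astrocyte markers from 1111 to 1579 and from 1307 to 1435 CPM. Of these, 2 of 5 glutamatergic markers were called higher and 1 lower at 4 h in DMSO, 2 of 4 GABAergic markers tested were higher, and none of 6 astrocyte markers was called. Astrocyte markers were called in the other responses, 2 higher and 1 lower at 1 h in DMSO, 4 higher at 1 h under MM401 and 3 higher at 4 h under MM401. Of the 4 microglial markers tested, 1 was called higher at 4 h in DMSO and 2 at 4 h under MM401. Under MM401 the glutamatergic sum ran from 604 to 606 CPM in water for 4 h and from 835 to 935 CPM after 4 h of bicuculline. CPM here is the count divided by the TMM-scaled library total, as edgeR gives it. In these bulk cultures fewer cells of a type and less RNA per cell cannot be told apart, and the part of the marker changes in the results that follow was not tested.

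Levels of the genes differed several-fold when divided by gene span. In DMSO with water, Ppp3ca was highest at 4.04 CPM per kb, then Ppp3cb at 3.42 and Camk2a at 3.003, whose libraries overlapped with those of Ppp3cb. Camk2d (1.91 CPM per kb) and Camk2b (1.78) overlapped with each other, as did Camk1g (1.51) and Camk2g (1.504). Camk4 followed at 1.20 CPM per kb, and Camk1d (0.815) and Rcan1 (0.776) were lowest and overlapped. After 4 h of bicuculline in DMSO the order within CaMKII was turned, with Camk2d at 2.48 CPM per kb above Camk2a at 2.15 with no overlap of libraries.

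**Figure D1:**
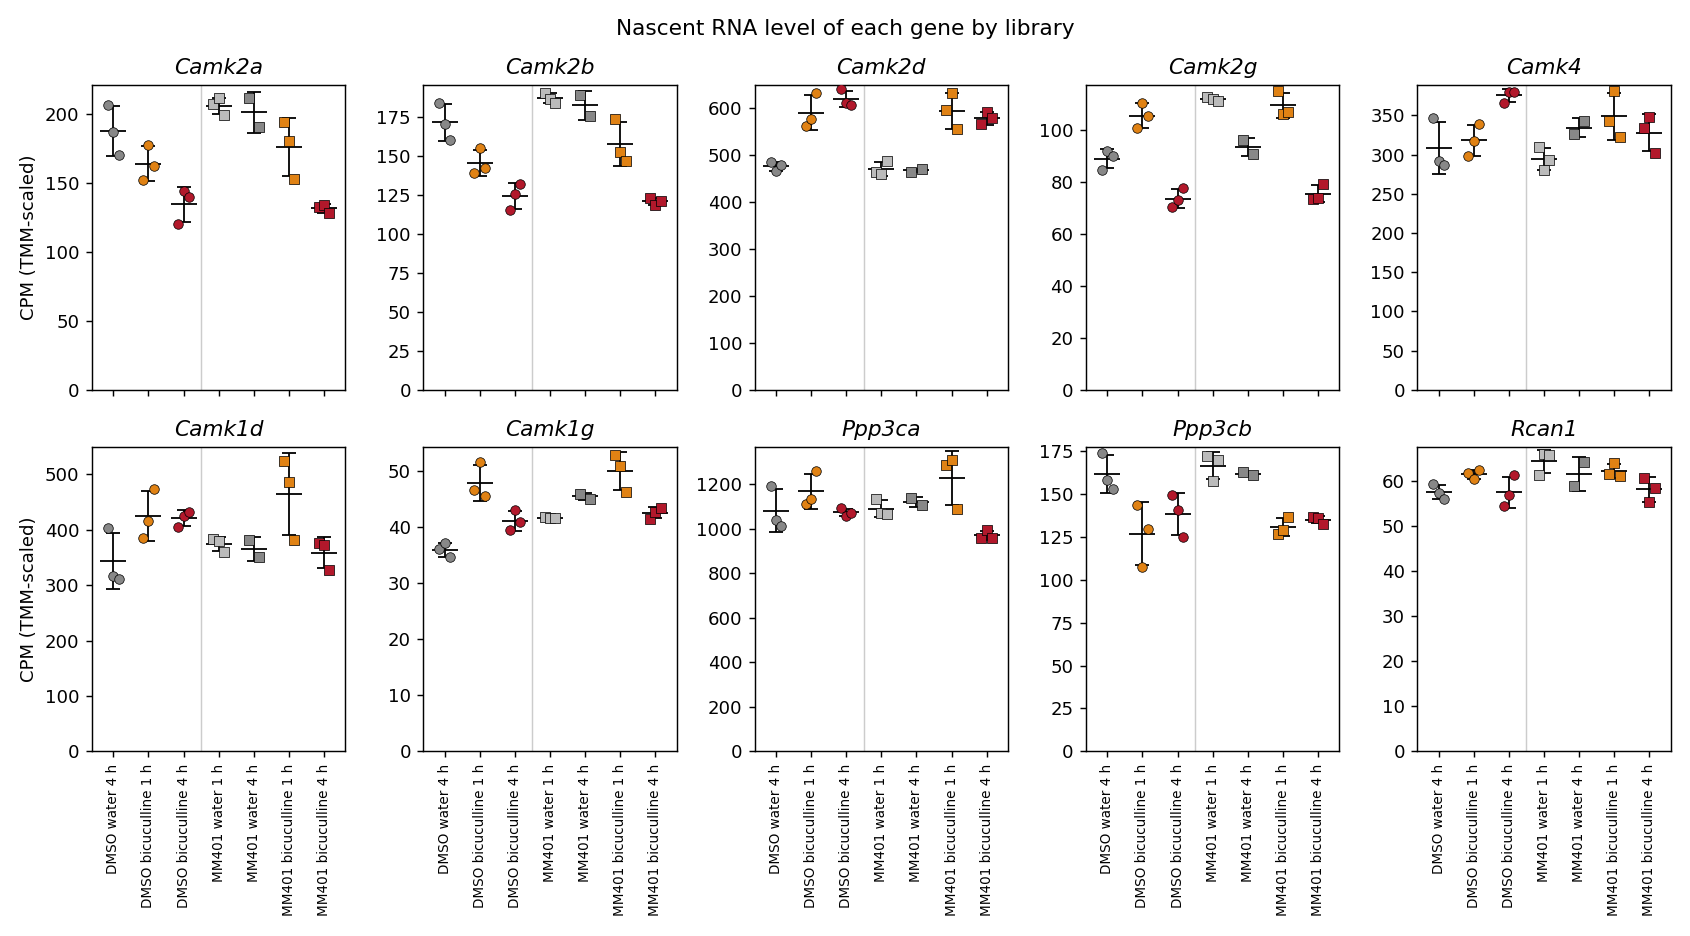
Nascent RNA level of each gene in CPM (TMM-scaled, linear axis from 0) for each of the 20 libraries, with the mean and SD of each group as bars; circles are DMSO, squares MM401, grey water, orange bicuculline 1 h and red bicuculline 4 h. Camk2a falls from 170 to 206 CPM in DMSO water to 120 to 144 CPM after 4 h of bicuculline, Camk2d rises from between 465 and 484 CPM to between 607 and 639 CPM, and Rcan1 stays between 54.4 and 66.1 CPM in all libraries.

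The first question was how nascent RNA of these genes differed after bicuculline. A gene was called when its adjusted p-value (edgeR's quasi-likelihood test, Benjamini-Hochberg over all 16959 genes) was under 0.05. In DMSO, 6 of the 10 were called at 1 h, 4 higher and 2 lower, in a comparison in which 44.6% of all genes tested were called (20% higher, 24.5% lower). At 4 h in DMSO 8 were called, 4 higher and 4 lower, against 49.2% of all genes (23.7% higher, 25.5% lower). Under MM401, 7 were called at 1 h (4 higher, 3 lower) against 39.9% of all genes (18.1% higher, 21.8% lower), and 5 at 4 h (1 higher, 4 lower) against 44.6% (23% higher, 21.7% lower). With so many of all genes called in the same fits, these counts are not taken as particular to the 10. The largest change called was that of Camk2a after 4 h under MM401, which fell by 34.7%. The 10 genes' median log2 fold changes were 0.10, -0.01, 0.07 and -0.15 in these 4 responses, and those of all genes tested were -0.04, -0.02, -0.0018 and 0.02.

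**Figure D2:**
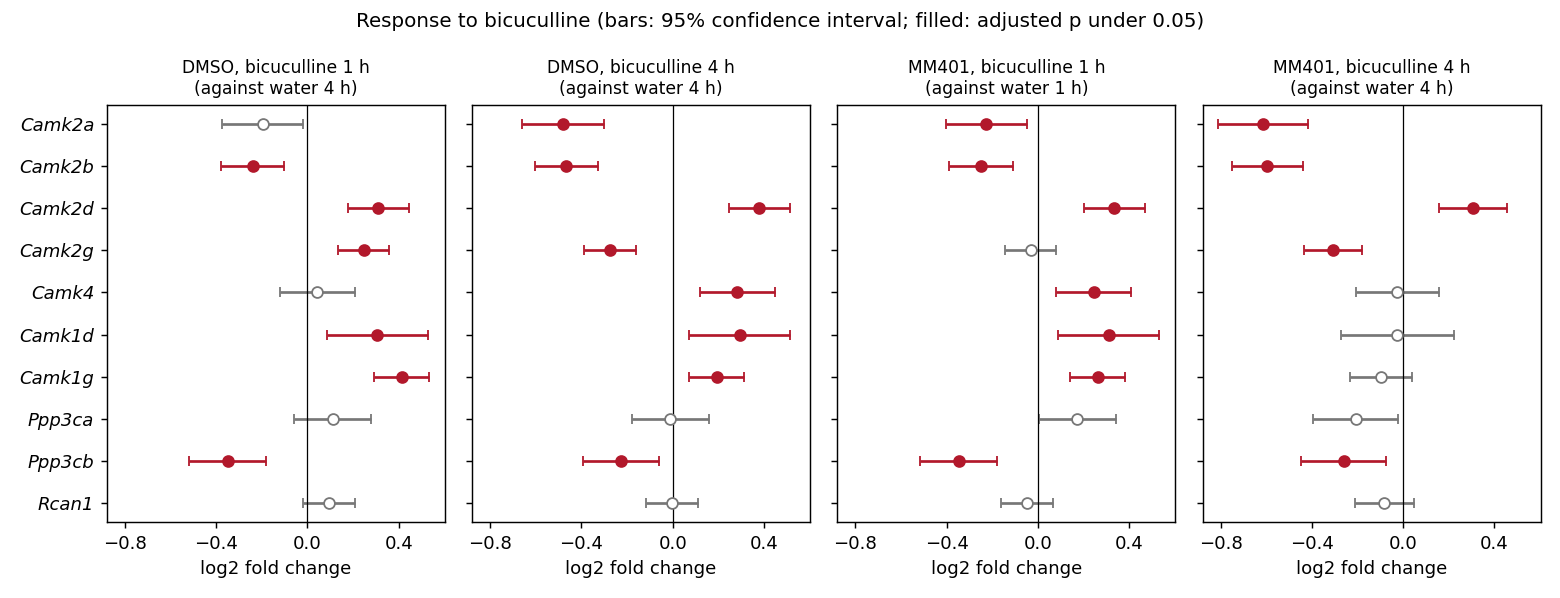
Log2 fold change of each gene after bicuculline (x axis) with its 95% confidence interval, in DMSO at 1 h and 4 h (both against water 4 h) and in MM401 at 1 h (against water 1 h) and 4 h (against water 4 h); filled points passed an edgeR adjusted p of 0.05. Camk2a and Camk2b lie left of 0 in all 4 panels and reach -0.61 and -0.60 at 4 h under MM401, Camk2d lies right of 0 in all 4 (0.31 to 0.38), and Rcan1 has no filled point.

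Camk2a and Camk2b, the neuronal alpha and beta subunits of CaMKII, both fell by 4 h in both pretreatments, and at 4 h both lay below 1 h. Camk2a (chromosome 18, 60925632 to 60988152, plus strand) was at 206, 187 and 170 CPM in the 3 DMSO water libraries, 152, 178 and 162 CPM after 1 h of bicuculline and 120, 144 and 139 CPM after 4 h. The 1 h libraries overlapped with water, and those at 4 h all lay below both. Its log2 fold change was -0.20 ± 0.09 (SE; edgeR adjusted p = 0.0679) at 1 h, which passed the test without bicuculline replicate 2 (-0.26) or water replicate 3 (-0.25), with the gene length correction (-0.27) and with plain library size (-0.38), and -0.48 ± 0.09 (7.86e-05) at 4 h. Under MM401 it was at 207, 211 and 199 CPM in water for 1 h, 212 and 191 CPM in water for 4 h, 194, 181 and 153 CPM after 1 h of bicuculline and 132, 134 and 128 CPM after 4 h. No bicuculline library overlapped with its own water group. The log2 fold changes were -0.23 ± 0.09 (edgeR adjusted p = 0.0386) at 1 h and -0.61 ± 0.09 (1.96e-05) at 4 h. The 1 h call under MM401 was lost when any one of 5 of the 6 libraries was left out (all but bicuculline replicate 1, values from -0.25 to -0.13) and with DESeq2 (-0.20), whereas both 4 h calls held in every alternative run.

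Camk2b (chromosome 11, 5969666 to 6065748, minus strand) was at 184, 170 and 160 CPM in DMSO water, 139, 155 and 142 CPM after 1 h of bicuculline and 115, 125 and 132 CPM after 4 h. Here the 3 groups did not overlap. The fall was -0.24 ± 0.07 at 1 h (edgeR adjusted p = 0.00589) and -0.47 ± 0.07 at 4 h (5.95e-06). The 1 h call was lost with only the groups compared in the fit (-0.21) and with all 21 libraries (-0.22). With MM401 Camk2b was at 184 to 190 CPM in water for 1 h, 189 and 176 CPM in water for 4 h, 173, 152 and 146 CPM after 1 h of bicuculline and 118 to 123 CPM after 4 h. These gave -0.25 ± 0.07 (edgeR adjusted p = 0.00508) and -0.60 ± 0.07 (1.33e-06). From 1 h to 4 h of bicuculline both genes fell again, Camk2a by 17.9% and Camk2b by 14.5% in DMSO and by 25.2% and 23.3% under MM401. In that time comparison 5 of the 10 genes were called in DMSO (1 higher, 4 lower; 34.2% of all genes, 19.1% higher and 15.2% lower) and 6 under MM401 (all lower; 33.6% of all genes, 16% lower). The DMSO calls of both genes between 1 h and 4 h were lost without bicuculline 1 h replicate 2 (-0.22 for Camk2a and -0.18 for Camk2b) or without bicuculline 4 h replicate 1 (-0.21 and -0.18). The ratio of Camk2a to Camk2b per length stayed between group means of 1.66 and 1.73 in all 7 groups. The fall of both was measured in the libraries in which the summed glutamatergic markers were higher.

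Camk2d, the delta subunit, found in glia and muscle as well as neurons, went the other way. The gene (chromosome 3, 126596951 to 126846326, plus strand) was at 484, 465 and 478 CPM in DMSO water, 561, 577 and 632 CPM after 1 h of bicuculline and 639, 610 and 607 CPM after 4 h. MM401 libraries held it at 463, 460 and 488 CPM in water for 1 h, 464 and 470 CPM in water for 4 h, 595, 631 and 554 CPM after 1 h of bicuculline and 565, 591 and 577 CPM after 4 h. Every bicuculline library lay above every water library. The log2 fold changes were 0.31 ± 0.06 and 0.38 ± 0.06 at 1 h and 4 h in DMSO (edgeR adjusted p = 0.000454 and 4.07e-05), and 0.34 ± 0.06 and 0.31 ± 0.07 under MM401 (0.000246 and 0.00157). With plain library size the values were 0.12 and 0.11 in DMSO and 0.12 at 1 h under MM401, none of them called, and 0.23 at 4 h under MM401. Between 1 h and 4 h Camk2d was not called in either pretreatment (0.07 ± 0.06 and -0.04 ± 0.06; the sign turned under plain library size in both). The summed level of the 6 astrocyte markers was 1514 to 1652 CPM after 1 h of bicuculline in DMSO and 1307 to 1435 CPM after 4 h, both overlapping with water (1111 to 1579 CPM). Under MM401 it was 1559 to 1633 CPM at 1 h against 1068 to 1327 CPM in water, and 1299 to 1375 CPM at 4 h against 1080 to 1192 CPM, with no overlap at either time. The 6 markers of the oligodendrocyte lineage summed to 142 to 164 CPM in DMSO water, 170 to 184 CPM after 1 h of bicuculline and 172 to 187 CPM after 4 h. With MM401 they summed to 154 to 161 CPM and 153 to 161 CPM in water for 1 h and 4 h, 179 to 185 CPM after 1 h of bicuculline and 183 to 192 CPM after 4 h. Bicuculline thus did not overlap with water in any of the 4 responses. Of these 6 markers 2 and 3 were called higher at 1 h and 4 h in DMSO, 1 and 2 under MM401, and none lower. The part of either cell type in the rise of Camk2d was not tested.

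Camk2g, the gamma subunit (chromosome 14, 20734873 to 20794088, minus strand), had a time course of its own. It was at 84.9, 92.2 and 90.1 CPM in DMSO water for 4 h, 101, 110 and 106 CPM after 1 h of bicuculline and 70.3, 73.0 and 77.6 CPM after 4 h, with no overlap between the groups. It was thus 0.25 ± 0.05 higher at 1 h (log2; edgeR adjusted p = 0.000864) and lower at 4 h (-0.27 ± 0.05, 0.000248), and it fell by 30.3% between 1 h and 4 h. In MM401 cultures Camk2g was at 113, 112 and 111 CPM in water for 1 h and 96.2 and 91.1 CPM in water for 4 h, against 115, 106 and 107 CPM after 1 h of bicuculline and 73.6, 73.8 and 79.5 CPM after 4 h. Against its own 1 h water the 1 h level did not pass the test (-0.03 ± 0.05, edgeR adjusted p = 0.675), at 4 h it was lower (-0.31 ± 0.06, 0.000302), and it fell by 31.0% between 1 h and 4 h of bicuculline. The water groups of MM401 themselves differed, by -0.26 ± 0.06 from 1 h to 4 h (edgeR adjusted p = 0.0448), the only call among the 10 in a comparison in which 0.867% of all genes were called. That call was lost without any one of the 5 libraries (values from -0.30 to -0.21) and with the replicate number as a block (-0.25, adjusted p = 0.0545; 0.00977 to 0.506 over all alternatives). The 1 h rise in DMSO was measured against water for 4 h, so that drug and time cannot be told apart there. With plain library size that rise was 0.05 and not called, and Camk2g at 1 h under MM401 was called lower (-0.24). The falls between 1 h and 4 h of bicuculline held in all alternatives run in both pretreatments.

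The makeup of CaMKII nascent RNA shifted from alpha and beta toward delta. Taking the 4 genes per length as 100% in each library, which removes the scaling between libraries, Camk2a made up 36.6% ± 1.8 (SD, n = 3) in DMSO water, 31.6% ± 1.1 after 1 h of bicuculline and 30.0% ± 1.9 after 4 h. Camk2d made up 23.3% ± 1.0, 28.6% ± 1.7 and 34.7% ± 2.3 in the same groups, with no overlap between them. Camk2b went from 21.8% ± 0.49 to 18.2% ± 0.55 and 18.0% ± 0.60, and Camk2g from 18.4% ± 1.5 to 21.5% ± 0.26 and 17.3% ± 0.47. The ratio of Camk2d to Camk2a per length rose from 0.639 ± 0.059 in DMSO water to 0.906 ± 0.084 at 1 h and 1.16 ± 0.15 at 4 h. The ratio under MM401 was 0.574 ± 0.036 in water for 1 h, 0.584 ± 0.048 (n = 2) in water for 4 h, 0.851 ± 0.074 after 1 h of bicuculline and 1.10 ± 0.032 after 4 h. In both pretreatments the libraries of water, 1 h and 4 h did not overlap in this ratio. These shares and ratios are given without a test, and they do not remove differences that go with gene span. Camk2d spans 249.4 kb, and Camk2a, Camk2b and Camk2g span 62.5, 96.1 and 59.2 kb. Genes of at least 200 kb had median log2 fold changes of 0.24 and 0.24 at 1 h and 4 h in DMSO and 0.24 and -0.01 under MM401. Those of genes under 100 kb were -0.09, -0.06, -0.05 and 0.01. The part of span in the shift was not tested.

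**Figure D3:**
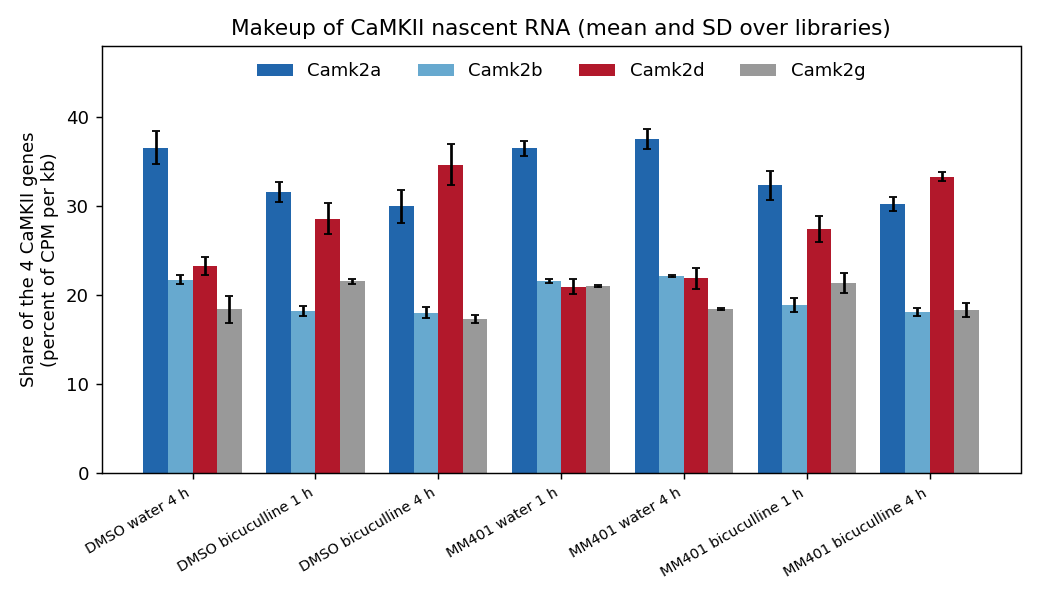
Share of each of the 4 CaMKII genes in their summed nascent RNA per length (percent of CPM per kb, y axis from 0) in the 7 groups, as the mean and SD over 3 libraries (2 for MM401 water 4 h). Camk2d rises from 23.3% in DMSO water to 34.7% after 4 h of bicuculline and Camk2a falls from 36.6% to 30.0%, and the MM401 groups show the same order at 4 h (33.3% and 30.2%).

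Camk4, the nuclear kinase CaMKIV (chromosome 18, 32939041 to 33195767, plus strand), was called higher at 4 h in DMSO but not under MM401. It was at 347, 291 and 287 CPM in DMSO water, 298, 317 and 339 CPM after 1 h of bicuculline and 366, 380 and 380 CPM after 4 h. Replicate 1 of water lay above the 1 h libraries and below the 4 h libraries, while the other 2 lay below both. The log2 fold changes were 0.04 ± 0.08 at 1 h (edgeR adjusted p = 0.682) and 0.28 ± 0.08 at 4 h (0.00466). Under MM401 it was at 310, 281 and 293 CPM in water for 1 h, 326 and 343 CPM in water for 4 h, 342, 382 and 323 CPM after 1 h of bicuculline and 335, 347 and 303 CPM after 4 h. It was higher at 1 h (0.24 ± 0.08, edgeR adjusted p = 0.0165), and at 4 h the groups overlapped (-0.03 ± 0.09, 0.83). In DMSO it rose by 0.24 ± 0.08 between 1 h and 4 h (0.0208), a call lost without any one of bicuculline 1 h replicates 1 (0.20) and 2 (0.24) and 4 h replicates 2 (0.23) and 3 (0.23). The 4 h call against water in DMSO was lost without water replicate 2 (0.23) or 3 (0.21), and the 1 h call under MM401 without bicuculline replicate 2 (0.18) or water replicate 2 (0.21).

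Camk1d, a CaMKI kinase (chromosome 2, 5293457 to 5714762, minus strand), was higher at both times in DMSO and at 1 h under MM401. It was at 403, 316 and 311 CPM in DMSO water, 385, 415 and 474 CPM after 1 h of bicuculline and 404, 425 and 433 CPM after 4 h. Water replicate 1 stood above the other 2 and overlapped with the 1 h group. The log2 fold changes were 0.31 ± 0.11 (edgeR adjusted p = 0.0233) and 0.29 ± 0.11 (0.0271). Camk1d levels under MM401 were 383, 379 and 360 CPM in water for 1 h, 381 and 350 CPM in water for 4 h, 524, 486 and 382 CPM after 1 h of bicuculline and 376, 373 and 327 CPM after 4 h. It was called at 1 h, where 1 library overlapped with water (0.31 ± 0.11, edgeR adjusted p = 0.0244), and not at 4 h (-0.03 ± 0.12, 0.873), and it fell by 22.7% between the times (0.00988). Each of these calls was lost when single libraries were left out. These were bicuculline 1 h replicate 3 (0.24) and water replicates 2 (0.28) and 3 (0.26) for 1 h in DMSO, and bicuculline 4 h replicates 2 (0.29) and 3 (0.27) and water replicates 2 (0.22) and 3 (0.20) for 4 h in DMSO. Both were also lost with only the groups compared in the fit (0.33 and 0.27). The libraries under MM401 were bicuculline replicates 1 (0.21) and 2 (0.28) and water replicates 2 (0.32) and 3 (0.29) for 1 h, and bicuculline 1 h replicate 1 (-0.27) and 4 h replicate 3 (-0.31) for the fall between the times.

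Camk1g, the membrane-anchored CaMKI gamma (chromosome 1, 193346346 to 193370282, minus strand), is the shortest of the 10 genes at 23.9 kb and had the largest rise of them at 1 h in DMSO. It was at 36.2, 37.2 and 34.7 CPM in DMSO water, 46.8, 51.6 and 45.6 CPM after 1 h of bicuculline and 39.5, 43.1 and 41.0 CPM after 4 h. The 3 groups did not overlap, with 1 h above 4 h above water. The log2 fold changes were 0.41 ± 0.06 (edgeR adjusted p = 6.33e-06) at 1 h and 0.19 ± 0.06 (0.00879) at 4 h, and it fell by 14.2% between them. Under MM401 it was at 41.9, 41.7 and 41.6 CPM in water for 1 h, 46.0 and 45.1 CPM in water for 4 h, 53.0, 50.9 and 46.4 CPM after 1 h of bicuculline and 41.5, 42.7 and 43.5 CPM after 4 h. It was higher at 1 h (0.26 ± 0.06, edgeR adjusted p = 0.00101) and did not pass the test at 4 h (-0.10 ± 0.06, 0.239), when all 3 libraries lay below both water libraries. The 4 h rise in DMSO was lost without water replicate 3 (0.14) and with only the groups compared (0.17), and turned to -0.08 under plain library size, whereas the 1 h rise in DMSO held in all alternatives run.

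Of the 2 calcineurin catalytic genes, Ppp3cb fell. Ppp3ca was not called against water in the edgeR fit to the 20 libraries with TMM scaling, but was in some alternatives. Ppp3cb, the beta isoform (chromosome 14, 20499364 to 20546573, minus strand), was at 174, 158 and 153 CPM in DMSO water, 144, 107 and 130 CPM after 1 h of bicuculline and 149, 141 and 125 CPM after 4 h. All bicuculline libraries lay below all water libraries. It fell by 21.5% at 1 h (edgeR adjusted p = 0.00128) and by 14.5% at 4 h (0.0244). Ppp3cb levels under MM401 were 172, 157 and 170 CPM in water for 1 h, 162 and 161 CPM in water for 4 h, 126, 129 and 136 CPM after 1 h of bicuculline and 137, 136 and 132 CPM after 4 h, again with no overlap. It fell by 21.4% at 1 h (edgeR adjusted p = 0.00151) and by 16.5% at 4 h (0.0224). The 1 h falls held in all alternatives run. The 4 h calls were lost without bicuculline replicate 3 (-0.16) or water replicate 1 (-0.17) or with DESeq2 (-0.20) in DMSO. Under MM401 they were lost without bicuculline replicate 3 (-0.25), water replicate 1 (-0.27) or water replicate 2 (-0.30). The gene overlaps with 1810062O18Rik, a gene of 24389 bases on the other strand, whose median count was 2.88% of that of Ppp3cb.

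Ppp3ca, the alpha isoform and main calcineurin subunit of the forebrain (chromosome 3, 136670066 to 136937727, plus strand), was at 1191, 1039 and 1014 CPM in DMSO water, 1111, 1135 and 1259 CPM after 1 h of bicuculline and 1092, 1057 and 1070 CPM after 4 h. These groups overlapped, and the log2 fold changes were 0.11 ± 0.08 (edgeR adjusted p = 0.277) and -0.01 ± 0.08 (0.926). Ppp3ca levels under MM401 were 1134, 1072 and 1066 CPM in water for 1 h, 1137 and 1105 CPM in water for 4 h, 1287, 1308 and 1090 CPM after 1 h of bicuculline and 958, 994 and 958 CPM after 4 h. The 3 libraries at 4 h were the lowest of the 20 but their difference from water did not pass the test against water (-0.21 ± 0.09, edgeR adjusted p = 0.0648), and the gene fell by 21.04% from 1 h to 4 h (0.00232). The 1 h value under MM401 (0.17 ± 0.08, edgeR adjusted p = 0.099) was called without bicuculline replicate 3 (0.26) and with DESeq2 (0.20), and that at 4 h with DESeq2 (-0.22) and with only these groups in the fit (-0.23). With plain library size Ppp3ca was called lower at 4 h in DMSO (-0.28) and under MM401 (-0.28), and between 1 h and 4 h in DMSO (-0.21). Within each library the ratio of Ppp3ca to Ppp3cb per length was 1.18 ± 0.027 in DMSO water, 1.65 ± 0.26 after 1 h and 1.38 ± 0.12 after 4 h, with both bicuculline groups above water. Under MM401 the ratio was 1.16 ± 0.046, 1.22 ± 0.015 (n = 2), 1.66 ± 0.22 and 1.27 ± 0.029 in water for 1 h, water for 4 h, bicuculline for 1 h and bicuculline for 4 h. This ratio does not remove differences that go with gene span (267.7 kb for Ppp3ca and 47.2 kb for Ppp3cb).

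Rcan1 (chromosome 16, 92391951 to 92466169, minus strand) was called in none of the 12 comparisons by edgeR (0 at an unadjusted p under 0.05, and 0 by DESeq2 in the 6 of bicuculline against water or between its times), and had the smallest range of the 10 over the 7 groups (0.16 in log2). It was at 59.3, 57.3 and 56.1 CPM in DMSO water, 61.8, 60.5 and 62.5 CPM after 1 h of bicuculline and 54.4, 56.8 and 61.3 CPM after 4 h. The 1 h libraries all lay above water by a small margin, and the 4 h libraries overlapped with it. The log2 fold changes were 0.10 (95% interval -0.02 to 0.21, edgeR adjusted p = 0.161) and -0.001 (-0.11 to 0.11, 0.99). Rcan1 levels under MM401 were 61.5, 66.1 and 65.8 CPM in water for 1 h, 58.9 and 64.3 CPM in water for 4 h, 61.6, 64.0 and 61.1 CPM after 1 h of bicuculline and 60.8, 55.3 and 58.5 CPM after 4 h. The groups overlapped at both times (-0.05 ± 0.05 and -0.08 ± 0.06, edgeR adjusted p = 0.507 and 0.293). The value at 4 h in DMSO was -0.14 with the gene length correction and -0.27 with plain library size, both called lower. Rcan1 was also called lower at 1 h under MM401 with plain library size (-0.26), and between 1 h and 4 h in DMSO with the length correction (-0.14) and with plain library size (-0.18). These are counts over the whole 74.2 kb gene, so a response of the transcript from the internal start alone was not measured here.

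Fold changes of the longest genes depended on how span was treated. Camk2d, Camk4, Camk1d and Ppp3ca span 249.4, 256.7, 421.3 and 267.7 kb. Among all 962 genes tested of at least 200 kb, the median log2 fold change after bicuculline was 0.24 at 1 h and 0.24 at 4 h in DMSO, 0.24 at 1 h and -0.01 at 4 h under MM401, against -0.09, -0.06, -0.05 and 0.01 for the 14609 genes under 100 kb. The rises of Camk1d in DMSO (0.31 and 0.29), of Camk4 at 4 h in DMSO (0.28) and of both at 1 h under MM401 (0.31 and 0.24) were thus close to the median of genes as long. Camk2d at 4 h stood above it in both pretreatments (0.38 against 0.24 and 0.31 against -0.01). With a correction for gene length, Camk2d was no longer called at 1 h (0.09 in DMSO and 0.12 under MM401) but was called at 4 h (0.15 and 0.29), and Camk1d and Camk4 were called higher against water in none of the 4 responses (0.03 to 0.06 where they had been called). The rise of Camk4 between 1 h and 4 h in DMSO stayed called (0.23). The fall of Camk1d between these times under MM401 went from -0.37 to -0.16 and was no longer called (adjusted p = 0.051). With it Camk4 turned to -0.18 and Ppp3ca to -0.11 at 1 h in DMSO, both called lower, and Ppp3ca was also called lower at 4 h (-0.24 in DMSO and -0.22 under MM401). Camk1g, Camk2b, Camk2g and Ppp3cb, all under 100 kb, kept direction and side of the threshold with the correction in these 4 responses.

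Scaling to plain library totals, in place of TMM, moved the median of all genes to -0.23 and -0.30 at 1 h and 4 h in DMSO and to -0.21 and -0.06 under MM401. It left the called falls of Camk2a, Camk2b and Ppp3cb against water called and deeper, added a call for Camk2a at 1 h in DMSO (-0.38), and of the rises kept the calls of Camk1g at 1 h in DMSO (0.22) and of Camk2d at 4 h under MM401 (0.23). The rises of Camk1d (0.12 and 0.03 in DMSO, 0.09 at 1 h under MM401), of Camk4 (0.02 at 4 h in DMSO, 0.03 at 1 h under MM401) and of Camk1g at 1 h under MM401 (0.05) were not called, and Camk4 at 1 h in DMSO was called lower (-0.14). Of the genes called, 21.2% and 18.8% were higher at 1 h and 4 h in DMSO under plain totals, against 44.9% and 48.1% under TMM. Under MM401 these shares were 16.3% and 40.3% against 45.4% and 51.5%, and between 1 h and 4 h of bicuculline 39.2% against 55.7% in DMSO and 65.0% against 52.3% under MM401. Of the 10, those called were then 1 higher and 4 lower at 1 h and 0 higher and 6 lower at 4 h in DMSO, and 0 higher and 5 lower and 1 higher and 5 lower under MM401.

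**Figure D4:**
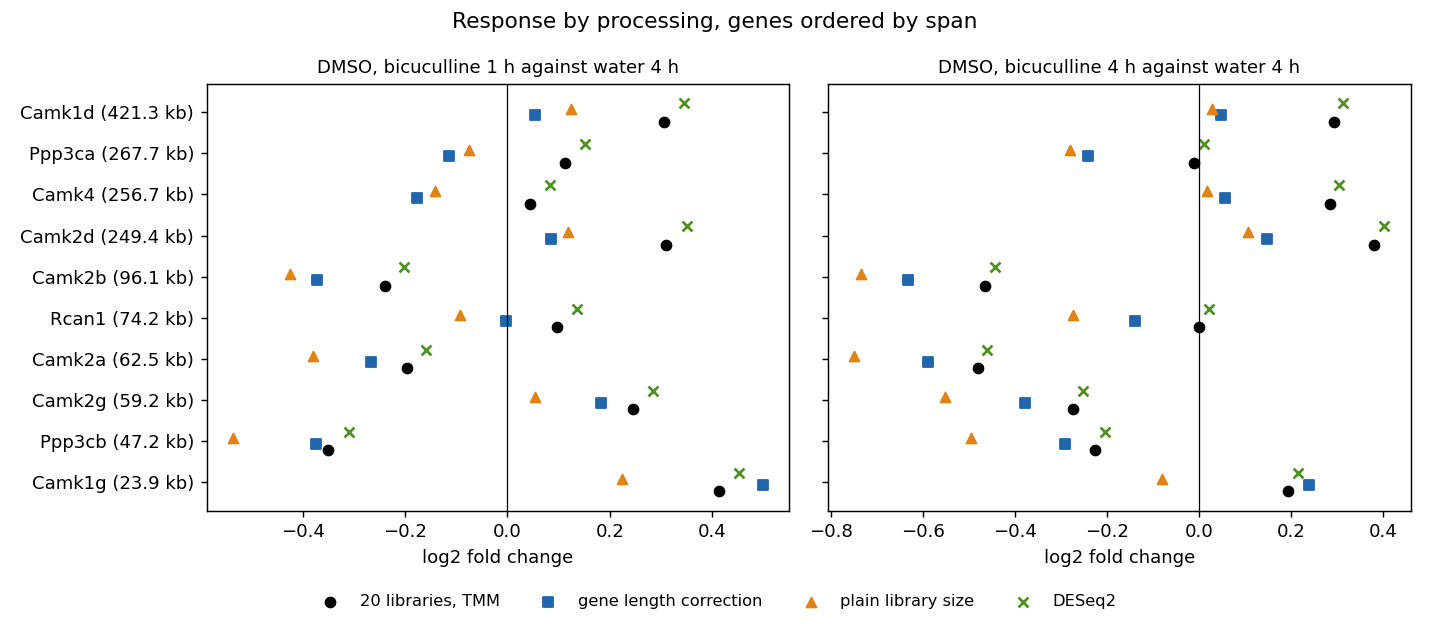
Log2 fold change (x axis) of the 10 genes, ordered by span, after 1 h (left) and 4 h (right) of bicuculline in DMSO under 4 ways of processing, given by marker shape. The 4 genes over 200 kb move left with the gene length correction (Camk1d from 0.31 to 0.05 at 1 h), plain library size moves all 10 left, and Camk2a and Camk2b lie left of 0 under all 4.

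The next question was whether MM401 changed the levels or the responses. In water for 4 h, 1 of the 10 was called, Camk1g, at 46.0 and 45.1 CPM under MM401 against 36.2, 37.2 and 34.7 CPM in DMSO (0.34 ± 0.06, edgeR adjusted p = 0.0432), in a comparison in which 0.0826% of all genes (14 of 16959) were called. The groups did not overlap. The call was lost without any one of 4 of the 5 libraries (all but DMSO replicate 1, values 0.31 to 0.37), with plain library size (0.25) and with only these groups in the fit (0.34). In bicuculline for 1 h none of the 10 was called by edgeR (0 at an unadjusted p under 0.05, 0 by DESeq2; log2 fold changes 0.01 to 0.13), where 0.0059% of all genes were called. In bicuculline for 4 h none was called (2 at an unadjusted p under 0.05, 0 by DESeq2; -0.23 to 0.05), nor was any gene of the series by edgeR (1309 at an unadjusted p under 0.05, 7 by DESeq2). Those 2 were Camk1d (-0.23 ± 0.11) and Camk4 (-0.19 ± 0.08), and in both the 3 MM401 libraries lay below the 3 DMSO libraries.

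No response was called different between MM401 and DMSO by edgeR. At 4 h the difference between the responses was negative for all 10 genes (-0.32 to -0.03; 2 at an unadjusted p under 0.05). Over all genes the median was 0.03, 0% were called, 2552 of 16959 were at an unadjusted p under 0.05, and DESeq2 called 436. For the 10 genes the widest 95% interval extended 0.33 to each side of its estimate. The difference was -0.31 ± 0.12 for Camk4 (edgeR adjusted p = 0.251), -0.32 ± 0.16 for Camk1d (0.345) and -0.29 ± 0.09 for Camk1g (0.229), the 3 genes that were called higher at 4 h in DMSO and not under MM401. The unadjusted 95% intervals were -0.55 to -0.07 for Camk4 and -0.47 to -0.11 for Camk1g. Camk4 was called with DESeq2 (-0.34) and by edgeR without DMSO water replicate 1 (-0.40). Over the 7 alternatives other than leaving out a replicate, the difference ran from -0.34 to -0.10 for Camk4 and from -0.33 to -0.09 for Camk1g. Camk4 and Camk1d span 256.7 and 421.3 kb, and genes of at least 200 kb had median responses at 4 h of 0.24 in DMSO and -0.01 under MM401. The part of span in these differences was not tested. At 1 h, with both responses taken against water for 4 h, none was called (1 at an unadjusted p under 0.05, 0 by DESeq2; 0% of all genes called), with Camk1g at -0.28 ± 0.09 (edgeR adjusted p = 0.482). Both differences for Camk1g contain the higher level of this gene in MM401 water.

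Genes whose pattern over the 7 groups was most like that of the 3 most variable members were named by the root mean square difference of centred group means in log2 CPM, among 11866 genes. Camk2a and Camk2b were each other's nearest, at 0.019. Among the 3 nearest to Camk2a was also Klhl3, a Kelch adaptor (0.030), and among those nearest to Camk2b was Fbxw4 (0.032). For Camk2g they included Hlcs, which attaches biotin to enzymes (0.032), and Ssc5d (0.034). This is a description over 7 group means.

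A list of 39 other genes of calcium/calmodulin signalling, of which 37 were tested, moved in both directions. At 1 h in DMSO 11 were higher and 10 lower, at 4 h 12 and 7, at 1 h under MM401 12 and 7, and at 4 h under MM401 8 and 9, which is 56.8%, 51.4%, 51.4% and 45.9% of those tested against 44.6%, 49.2%, 39.9% and 44.6% of all genes. The median log2 fold changes of the list were 0.04, -0.01, 0.13 and 0.06. Camk2n2, an inhibitor protein of CaMKII, rose from 2.29 ± 0.45 CPM (SD, n = 3) in DMSO water to 4.50 ± 0.25 after 1 h of bicuculline (0.96 ± 0.14, edgeR adjusted p = 6.86e-06) and also rose at 4 h in DMSO (0.52) and at 1 h and 4 h under MM401 (0.87 and 0.79). Camk2n1, the other CaMKII inhibitor of the list, named after its values were seen, was at 22.9 CPM in DMSO water and fell at 1 h and 4 h in DMSO (-0.52 ± 0.10 and -0.40 ± 0.10, edgeR adjusted p = 0.000385 and 0.00303). It was not called under MM401 (-0.18 ± 0.11 and -0.09 ± 0.12). Ppm1f, a phosphatase that acts on CaM kinases, fell in all 4 responses, from 30.0 ± 2.5 CPM in DMSO water to 19.0 ± 0.57 at 1 h and 17.1 ± 1.8 at 4 h, while its relative Ppm1e rose from 411 ± 58 to 701 ± 18 CPM at 4 h (log2 fold changes 0.25 and 0.77 in DMSO and 0.28 and 0.50 under MM401, all called). Nrgn, the calmodulin buffer neurogranin, fell from 21.6 ± 1.2 to 12.6 ± 1.2 CPM at 1 h and 13.95 ± 2.5 CPM at 4 h in DMSO, and fell by 0.72 and 0.52 on the log2 scale under MM401.

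On the calcineurin side, Rcan2, a relative of Rcan1, rose from 150 ± 22 CPM in DMSO water to 264 ± 9.9 at 1 h and 265 ± 7.8 at 4 h (0.81 ± 0.08 and 0.82 ± 0.08, edgeR adjusted p = 2.49e-08 and 1.34e-08), and under MM401 by 0.61 and 0.35. Chp1, a calcineurin-like protein that inhibits the phosphatase, rose from 45.0 ± 2.1 to 86.6 ± 5.7 CPM at 4 h in DMSO (0.95 ± 0.07) and by 0.64 ± 0.08 under MM401, and was called higher at 1 h in both (0.58 and 0.54). Nfatc2, an NFAT factor, was at 44.1 ± 0.96 CPM in DMSO water, 82.0 ± 7.2 at 1 h and 36.5 ± 2.3 at 4 h, and its rise at 1 h was called (0.89 ± 0.07, edgeR adjusted p = 6.69e-10), as was its fall at 4 h (-0.27). That 1 h rise in DMSO was taken against water for 4 h, so drug and time cannot be told apart. Under MM401 Nfatc2 was at 58.2 ± 1.8 CPM in water for 1 h, 44.9 ± 1.4 (n = 2) in water for 4 h and 86.8 ± 4.6 after 1 h of bicuculline. It rose at 1 h against its own 1 h water (0.58) and was not called at 4 h (-0.18). Among the kinase activators, Camkk1 fell at 1 h (-0.58 ± 0.10 in DMSO and -0.41 ± 0.10 under MM401) and at 4 h (-0.28 ± 0.10 and -0.36 ± 0.11), and Camkk2 fell at 4 h (-0.49 ± 0.08 in DMSO and -0.70 ± 0.09 under MM401). Crtc1, a CREB coactivator that calcineurin acts on, fell at 1 h (-0.23 ± 0.07 in DMSO and -0.37 ± 0.07 under MM401) and at 4 h (-0.53 ± 0.07 and -0.61 ± 0.08). Pcp4, a calmodulin modulator, rose at 1 h under MM401 (0.99 ± 0.22) and was not called in DMSO (0.56 and 0.38). It was also called at 4 h under MM401 (0.68 ± 0.25) but not without any one of bicuculline replicates 1 (0.72) and 2 (0.50) and water replicates 1 (0.77) and 2 (0.54). None of the 37 was called between MM401 and DMSO by edgeR in water for 4 h (6 at an unadjusted p under 0.05, 1 by DESeq2), in bicuculline for 1 h (1 and 0) or 4 h (2 and 0), or for the difference between responses at 4 h (8 and 2) or 1 h (4 and 0). Without DMSO water replicate 1, edgeR called 5 of the list in water for 4 h, 6 for the difference at 4 h and 1 for that at 1 h. From water for 1 h to water for 4 h under MM401, 1 of the 37 was called, lower (2.70% against 0.867% of all genes). That count was 0 with all 21 libraries and 0 to 1 with 1 library left out.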

How the data were processed

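Per the labels' protocols, 1 µg of bromouridine-labelled RNA per culture went into each library. The authors deposited raw read counts per gene, which per the file headers came from featureCounts over the whole span of each gene on mouse build mm10. The submitters' processing notes also name Bowtie2, UMI-tools, DESeq2 and deepTools. Tool versions, the annotation release, the use of strand and the treatment of reads with several positions are not given in the sources used here, so reads of overlapping genes cannot be told apart. Starts in the deposited table lay 1 base below RefSeq's for 68.9% of 24043 matched genes and are given here counted from 1.

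The fit used edgeR 4.0.16 (R 4.3.3) on the counts: filterByExpr by group (minimum count 10, total 15), TMM scaling, and a robust quasi-likelihood fit of 7 group means to the 20 libraries, with 12 two-sided comparisons and Benjamini-Hochberg adjustment over 16959 genes. Log2 fold changes and CPM were computed here from the deposited counts. The members and gene lists were chosen with earlier results of these data known. All 10 members are named. From the pathway list each of the 4 bicuculline responses names up to 3 genes per direction with the largest change that were called, had at least 2 CPM and did not overlap between groups. Replicates were called biological in the labels and differed beyond sampling noise (chi-square per degree of freedom 6.14 to 78.5 over 19 pairs). Same-numbered libraries were taken to deviate together where the correlation of every pair was over 0.1, which with 3 pairs held only for MM401 against DMSO in bicuculline at 4 h (0.15, 0.11 and 0.17); the meaning of the numbers is not given in the labels. Alternatives were DESeq2 1.42.0, plain library size, no low-count filter, the replicate number as a block, all 21 libraries, only the groups compared, a correction for gene length (a smooth trend of each library's log counts on span), and leaving out each replicate. A few genes that the naming rules select are not reported here. The scripts were run on simulated data before use. Each group had 3 libraries, or 2 for MM401 with water for 4 h.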

Additional observations from a re-analysis of the deposited data

How the results depend on the processing

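Calls of the 10 genes moved with scaling, the gene length correction and the libraries used. The number called at 1 h under MM401 was 3 with all 21 libraries, 4 with the gene length correction and 4 to 7 with 1 library left out (7 as reported), at 4 h in DMSO 5 with all 21 libraries and 5 to 8 (8 as reported). At 4 h under MM401 it was 3 with all 21 libraries (5 as reported). Between 1 h and 4 h in DMSO it was 2 with all 21 libraries and 2 to 5 (5 as reported). The calls lost with all 21 libraries were Camk2b and Camk2g at 1 h in DMSO. At 1 h under MM401 they were Camk2a, Camk2b, Camk4 and Camk1d. At 4 h they were Camk4, Camk1d and Ppp3cb in DMSO and Camk2g and Ppp3cb under MM401. Between 1 h and 4 h of bicuculline they were Camk2a, Camk2b and Camk4 in DMSO and Ppp3ca under MM401. For the difference between responses at 4 h the number called was 1 with DESeq2 and 0 to 1 with 1 library left out. For MM401 against DMSO in water it was 0 with plain library size, with all 21 libraries and with only the groups compared, and 0 to 1 with 1 library left out. For water at 4 h against 1 h it was 0 with plain library size, no low-count filter, all 21 libraries and the length correction, 0 with the replicate number as a block, and 0 with any 1 library left out. The block changed no other call of a member, and turned only Camk1d at 4 h under MM401 (0.0025).

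Values that changed sign and were not called as reported, unless said, were these. With plain library size Camk1g at 4 h in DMSO, called as reported, was -0.082, and at 1 h in DMSO Camk4 was -0.14, Ppp3ca -0.074 and Rcan1 -0.092. Ppp3ca at 1 h under MM401 was -0.045, and Camk2d between the times was -0.013 in DMSO and 0.042 under MM401. With the length correction Camk4 at 1 h in DMSO was -0.18, Ppp3ca -0.11 and Rcan1 -0.0021, Ppp3ca at 1 h under MM401 was -0.046, and between the times under MM401 Camk2d was 0.11 and Camk4 0.065. With DESeq2 at 4 h in DMSO Ppp3ca was 0.010 and Rcan1 0.022. With all 21 libraries Camk4 at 4 h under MM401 was 0.080. With 1 library left out, Camk1d ran from -0.12 to 0.035 at 4 h under MM401 and from -0.080 to 0.034 between the times in DMSO. Camk2d ran from -0.12 to 0.0076 between the times under MM401 and Camk4 from -0.084 to 0.029 at 4 h under MM401. At 4 h in DMSO Ppp3ca ran from -0.083 to 0.064 and Rcan1 from -0.049 to 0.037. The cause was not tested.

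Among all genes, counts called moved by over 1.5 times between 1 h and 4 h of bicuculline with all 21 libraries (3745 against 5805 in DMSO, 3646 against 5691 under MM401). They moved for the difference at 4 h (0 as reported, 436 with DESeq2, up to 1551 without DMSO water replicate 1), for the difference at 1 h (0, 5 with DESeq2, up to 97 without that library), for MM401 against DMSO in water (14 as reported, 4 with plain library size, 162 with DESeq2, 0 with all 21 libraries, 0 with only the groups compared, 0 to 1272 with 1 library left out, highest without DMSO water replicate 1), and for water at 4 h against 1 h (147 as reported, 19 with all 21 libraries, 235 with the length correction, 275 with DESeq2, 328 with only the groups compared, 14 to 140 with 1 library left out). For MM401 against DMSO in bicuculline 1 gene was called at 1 h (4 with the replicate block, 14 with DESeq2) and 0 at 4 h (7 with DESeq2). Genes of the calcium/calmodulin list called with all 21 libraries were 11 against 21 at 1 h in DMSO, 12 against 19 at 1 h under MM401 and 9 against 14 between the times in DMSO.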

Other observations

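The library that was left out, replicate 3 of MM401 with water for 4 h, held 7 to 233 counts for each of the 10 genes (7 for Rcan1, 233 for Ppp3ca), so counting error alone was 6.55% to 37.8% of a value. As CPM of its plain total, Camk1d (451), Camk1g (50.5) and Ppp3cb (145) fell inside the range of the other 20 libraries. Camk2a (91.6 against 109.7 to 232.4), Camk2b (101.03 against 105.5 to 205.03), Camk2d (379 against 483 to 594), Camk2g (41.0 against 64.2 to 123), Camk4 (253 against 294 to 356), Ppp3ca (736 against 933 to 1215) and Rcan1 (22.1 against 49.7 to 72.7) lay below it.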
